A study of Mus musculus with 4 samples.

Results

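The genes described here encode the proteins of the cytosolic ribosome. They were taken by symbol: Rpl or Rps followed by a number and, where present, a short suffix, together with Rplp0, Rplp1, Rplp2 and Rpsa. Pseudogene symbols were left out, and at least 50 UMIs (molecules counted once each) over all spots were required. Of 32285 genes in the features list, 83 symbols matched and 82 met the minimum, 50 of the large (60S) and 32 of the small (40S) subunit. Just inside the minimum were Rpl3l with 65 UMIs and Rpl39l with 73, and just outside it was Rpl10l with 0. The next members by count, Rpl7l1 (8524) and Rps27l (16661), lay far above it.

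The genes were measured in spatial (Visium) libraries of the left hemisphere of female C57BL/6 mice, cut at 10 µm between bregma -2.0 and -2.2 mm. Each of the 4 groups, young or aged mice given vehicle or ethanol, was 1 library. Young mice were 3 to 4 months old and aged mice 18 to 20 months old, all from the NIA aged rodent colony. They received 10 gavages over 18 days, of ethanol at 3 g/kg or of water as vehicle, and brains were collected 18 hours after dosing ended. Values listed for the 4 libraries put young before aged and, at each age, vehicle before ethanol, which is called library order. The labels state no transgene, and whether a library held more than 1 animal was not stated. A spot covers several cells, so fewer cells of a type and less RNA per cell cannot be told apart. The plane of section also moved with the gavage label: a habenular cluster led by Gm5741, Gng8 and Gpr151 held 30 and 24 spots in the young and aged ethanol libraries and 0 in both vehicle libraries.

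The cytosolic ribosome joins a small subunit, which reads the messenger RNA, to a large subunit, which forms the peptide bond. Its proteins are needed in near-equal numbers, and most of their transcripts open with a run of pyrimidines, the terminal oligopyrimidine tract, through which mTORC1 signalling regulates their translation. Some members have a paralog with a narrower expression pattern. Among them are Rpl22l1, whose transcript is known to be repressed by Rpl22, and Rps27l, a p53 target, while Rpl3l is known from muscle and Rpl39l from testis.

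The annotated starts show how far the members share that tract. Windows are given for 9 members that carry a run near the start and to which the regional and library comparisons return. Each runs from 10 bases before the annotated start to 20 bases from it, from RefSeq on GRCm38.p6, with the start as base 11. Capitals mark runs of at least 7 pyrimidines that open with C, including runs that extend past the window.
Rps27 (chr3:90213629-90213658, minus strand): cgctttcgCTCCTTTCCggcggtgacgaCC
Rps6 (chr4:86857348-86857377, minus strand): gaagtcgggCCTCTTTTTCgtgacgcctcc
Rpl28 (chr7:4792955-4792984, plus strand): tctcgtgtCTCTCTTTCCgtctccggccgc
Rplp2 (chr7:141447641-141447670, plus strand): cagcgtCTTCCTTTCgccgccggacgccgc
Rpl15 (chr14:18270967-18270996, minus strand): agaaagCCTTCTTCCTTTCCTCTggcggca
Rpl35 (chr2:39005112-39005141, minus strand): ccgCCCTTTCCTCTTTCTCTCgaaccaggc
Rps9 (chr7:3704031-3704060, plus strand): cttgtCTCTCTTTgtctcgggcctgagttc
Rps12 (chr10:23787190-23787219, minus strand): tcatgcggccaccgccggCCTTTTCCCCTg
Rpl22l1 (chr3:28805498-28805527, plus strand): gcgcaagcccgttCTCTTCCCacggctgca
In Rps27, Rps6, Rpl28, Rplp2, Rpl15 and Rpl35 the annotated start lay inside the run and was itself a C. In Rps9 it lay inside the run but was a T, and in Rps12 and Rpl22l1 the run began after it. The comparisons also return to Rplp0, Rpl22, Rpl12, Rps2, Rps4x, Rps28 and Rpl10, whose windows held no such run and are not printed.

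The table of starts held 62 of the 82 members, 10 of them with more than 1 start, and a gene was counted when any of its starts carried the feature. At 13 of 62 members (21.0%) the start was a C followed by at least 4 pyrimidines, against 800 of 26963 other genes (2.97%). A run of at least 7 pyrimidines opening with C began within 20 bases of the start in 35 members (56.5%) and in 22.9% of the other genes. From 250 bases before to 50 bases after the start, CCGGAAG, the core of an ETS-type motif, was present on either strand in 26 members (41.9%) and in 9.85% of the others. TATAAA was present on either strand in 7 members (11.3%) against 15.7%. These are matches of letters in a window, not measured sites. Whether a run goes with the direction in which a member moved in the comparisons below was not tested.

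Ribosomal protein transcripts made up 7.67%, 7.54%, 7.85% and 7.41% of UMIs in library order. The libraries held 45995677 to 58305713 UMIs over 2642 to 2881 spots. Rplp1, a protein of the acidic stalk of the large subunit, had the most UMIs (623083 over all spots). It was followed by Rps21 (512533), Rpl41 (496283), Rps29 (475078) and Rpl37 (419613). The 60S members held 58.8% of ribosomal protein UMIs in the aged ethanol library and 59.5% to 60% in the others. That library also had the most mitochondrially encoded UMIs, 16.5% against 13.6% to 14.3% in the others. Its sum of Lars2, Gm42418 and AY036118, which can reflect ribosomal RNA, was 0.564% against 0.212% to 0.296%.

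Regions were clusters of spots with similar expression, built without the members, and 11 were named from their leading genes and marker lists. White matter, which joins 2 clusters, led by C4b and by Opalin, had the highest share of ribosomal protein UMIs, at 9.50%, 9.51%, 9.99% and 9.97% in library order. The striatal region, led by Penk, was second in each library at 8.99% ± 0.26 (SD, n = 4 libraries). Meninges had 8.74% ± 0.19, hypothalamus 8.68% ± 0.13, the dentate granule cluster 8.22% ± 0.47, the choroid plexus region 8.08% ± 0.48, CA1 7.80% ± 0.36 and deep neocortex 7.54% ± 0.12. At the lower end were upper neocortex (6.75% ± 0.20), CA3 (6.24% ± 0.21) and thalamus (5.69% ± 0.42), at ranks 9, 10 and 11 of 11 in each library. White matter was above striatum, deep above upper neocortex, upper neocortex above CA3 and CA3 above thalamus in 4 of 4 libraries. Meninges and hypothalamus, dentate and choroid plexus, choroid plexus and CA1, and CA1 and deep neocortex each changed places in at least 1 library. With mitochondrial genes out of the total, white matter had 11.05% ± 0.41 and striatum 11.05% ± 0.24, and striatum was higher in both young libraries. CA3 then had 6.82% ± 0.17 and thalamus 6.78% ± 0.49, and thalamus was higher in both aged libraries. The CA3 and dentate regions were 1 cluster each, of 22 to 39 and 26 to 40 spots per library. A second cluster with CA3 markers, led by Cabp7 and Homer3, had 56 to 89 spots per library and a share of 8.50% ± 0.51. A second one with dentate markers, led by C1ql2 and Lct, also had 56 to 89 spots and a share of 9.43% ± 0.57. The places of CA3 and of the dentate region in this order hold for the 1 cluster only. Joined with their second clusters they had shares of 7.38% ± 0.32 and 8.93% ± 0.59. Of the 31 clusters, those with shares above 9% outside white matter included the clusters led by Lars2, Gm42418 and Gh (9.60% ± 0.17) and by Hcrt, Avp and Oxt (9.34% ± 0.48).

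**Figure D1:**
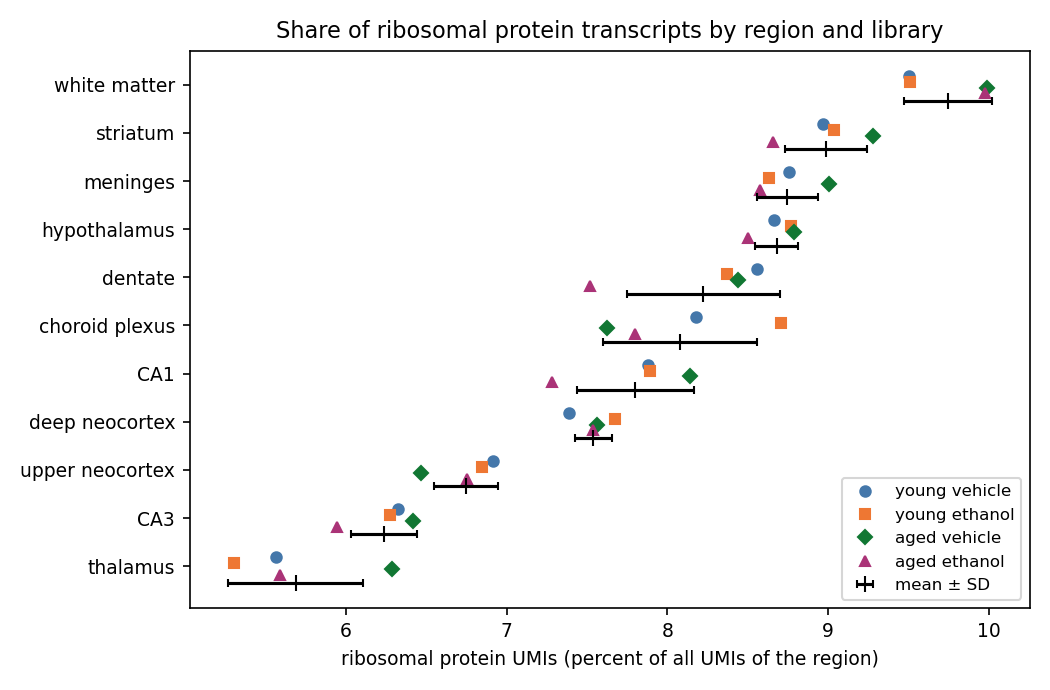
Ribosomal protein UMIs as percent of all UMIs (x axis) in 11 regions (y axis), with 1 point per library and the mean ± SD over the 4 libraries beneath them. White matter lies between 9.50% and 9.99% and thalamus between 5.31% and 6.29%, with no overlap.

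Nearly the whole set made up a larger part of the UMIs of white matter than of neocortex. Per spot the order was the reverse, with 904 ± 122 ribosomal protein UMIs in white matter and 1752 ± 176 in neocortex (SD, n = 4). Of 80 members that passed the filter on low counts, 77 were higher and 1 was lower in edgeR's quasi-likelihood test on region sums with library as a block and Benjamini-Hochberg adjustment over all genes. Over all 11560 genes tested, 34.4% were higher and 33.8% lower, and their median log2 ratio was 0.01 against 0.68 for the members. All 32 members of the 40S subunit were higher, with a median of 0.77, and 45 of 48 60S members were, with a median of 0.63. The share itself was 1.38-fold that of neocortex (log2 0.47 ± 0.06, SD, n = 4), and higher in 4 of 4 libraries. Spots of white matter had medians of 6694 to 9699 UMIs and those of neocortex 22563 to 26869. In spots of 5000 to 20000 UMIs alone the mean log2 ratio of the share was 0.38.

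The members did not move by equal amounts. Rps12, of the small subunit, was highest on the TMM scale at log2 1.34 (SE 0.07, adjusted p = 4.06e-11), with 1.13, 1.36, 1.44 and 1.42 in library order. Rplp0, the scaffold of the acidic stalk, was higher by 1.26 (SE 0.08, adjusted p = 3.99e-10), Rps9 by 1.25 and Rps3, which lines the messenger RNA entry, by 1.09. Rpl22l1 was the 1 member that was lower, at -0.42 (SE 0.07, adjusted p = 3.38e-05) and below 0 in each of 4 libraries, while its parent Rpl22 was higher by 1.09 (SE 0.07, adjusted p = 2.19e-10).

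To describe the mix apart from the total, each gene was also tested with the summed ribosomal protein count as library size, so that 0 means a constant part of the ribosomal protein total. On that scale 22 members were higher and 21 lower in white matter, against 13.0% and 67.5% of all genes, a background that leans low because the total itself was high. The highest parts were those of Rps12 (log2 0.63, SE 0.07, adjusted p = 1.14e-08), Rplp0 (0.55), Rps9 (0.54), Rps27l (0.49) and Rps3 (0.38). The lowest were Rpl22l1 (-1.13, SE 0.08, adjusted p = 4.65e-12), Rpl7l1 (-0.67), a paralog of Rpl7 associated with ribosome assembly, Rpl12 (-0.55), which sits at the stalk base, Rpl15 (-0.45) and Rpl29 (-0.44). Each of these 10 lay on the same side of 0 in 4 of 4 libraries. The oligodendrocyte markers moved with the comparison, with 10 of 10 detected and a summed level of 39322 to 44675 CPM (UMIs scaled to a common total) in white matter against 1599 to 8837 CPM in the upper and deep neocortex clusters. The 6 neuronal markers, all detected in each of these regions, summed to 972 to 1180 CPM against 5176 to 6332 CPM. Their part in the result was not tested.

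**Figure D2:**
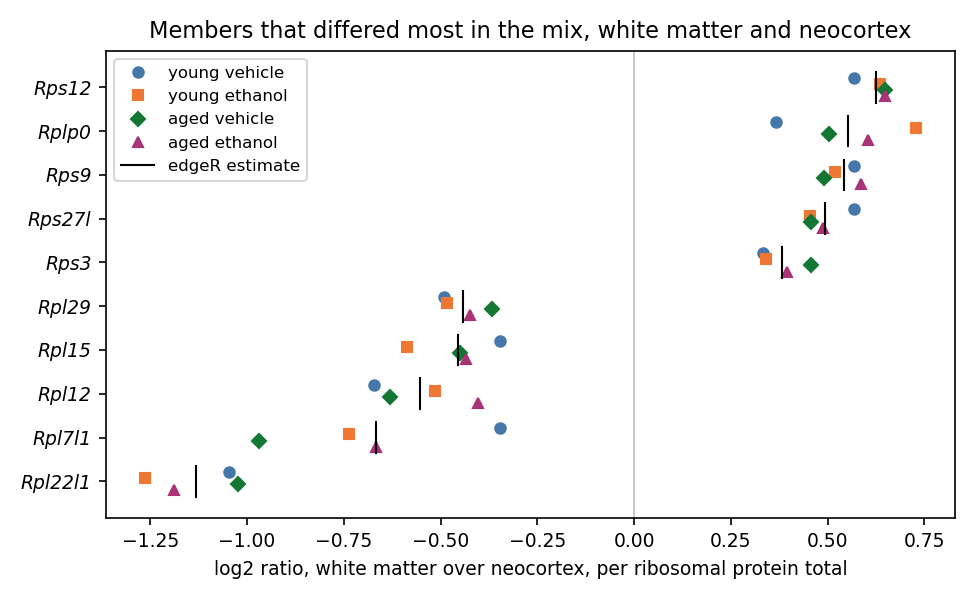
Log2 ratio of white matter over neocortex, per ribosomal protein total (x axis), for the 5 members with the highest and the 5 with the lowest estimates among those past the threshold (y axis), with 1 point per library and the edgeR estimate as a bar. Rpl22l1 stands lowest at -1.13 and Rps12 highest at 0.63.

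Other genes of the translation machinery were not all higher in white matter. Of 8 elongation factors 4 were higher and 3 lower, led by Eef1d (log2 1.82) and Eef1a1 (1.04), which encodes the widely expressed form of the factor that delivers aminoacyl-tRNA. Eef1a2, its form in neurons and muscle, was lower by -1.60 (adjusted p = 1.48e-10). Of 32 initiation factors 19 were higher and 4 lower, from Pabpc1 (0.86) to Eif4g3 (-0.73). Mitochondrial ribosomal proteins, which serve a separate ribosome, were higher in 11 and lower in 29 of 78, with a median of -0.15. Of 21 genes of ribosome assembly 4 were higher, among them Sbds (0.69), and 7 lower, among them Nhp2 (-0.84). Of 8 ribosomal or ribosome-bound proteins under other symbols 6 were higher and 1 lower, from Tpt1 (1.28) to Serbp1 (-0.23).

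Most members, and above all Rps27l, made up a larger part of the UMIs of choroid plexus spots than of neocortex. Ribosomal protein UMIs per spot were 1785 ± 151 (SD, n = 4). On the TMM scale 67 of 80 members were higher and 1 lower, against 32.6% and 31.9% of 11702 genes, with a member median of 0.39. The lower one was Rpl22l1 (-0.28, adjusted p = 0.00729). Rps27l was higher by 2.23 (SE 0.10, adjusted p = 2.69e-17), with 2.24, 1.88, 2.52 and 2.24 in the 4 libraries. Per ribosomal protein total 16 members were higher and 14 lower, against 20.9% and 49.2% of all genes. Rps27l (1.82), Rps9 (0.72), Rplp0 (0.70), Rpl22 (0.60) and Rpl7 (0.58) stood highest, and Rpl22l1 (-0.70), Rpl7l1 (-0.52), Rpl12 (-0.50), Rpl29 (-0.46) and Rpl37 (-0.39) lowest. The share of the choroid plexus region was 1.15-fold that of neocortex (log2 0.20 ± 0.07, SD, n = 4). The log2 ratio was 0.34 in spots of 5000 to 20000 UMIs, an alternative chosen after seeing the data, and 0.12 with mitochondrial genes out of the total. In spots of at least 20000 UMIs the choroid plexus region had 7.51%, 8.17%, 6.71% and 7.01% in library order. Neocortex had 6.83% to 7.06% in such spots, and was the higher of the pair in aged vehicle, at 6.83%. The size of the difference thus changed with the depth of the spots taken. The 29 to 65 choroid plexus spots per library also held 6 of 6 ependymal markers. These summed to 1249 to 1494 CPM against 15 to 26 CPM in the neocortex clusters. Oligodendrocyte markers summed to 12717 to 22124 CPM. The choroid plexus markers themselves took 141841, 101783, 197572 and 125704 CPM in library order, beside shares of 8.18%, 8.71%, 7.63% and 7.80%. The part of these marker sets in the result was not tested. Beyond the members, Eef1a2 was lower by -2.67 and Eef1d higher by 1.44, and the mitochondrial ribosomal protein Mrps6 was higher by 1.97.

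The Rpl22 pair gave the clearest regional pattern within the set. Rpl22l1 made up 0.325% ± 0.020 (SD, n = 4) of ribosomal protein UMIs in white matter and 0.438% ± 0.037 in choroid plexus, but 0.880% ± 0.017 in hypothalamus and 0.889% ± 0.032 in CA1. Rpl22 ran the other way in the extreme regions, from 0.382% ± 0.024 in hypothalamus to 0.663% ± 0.023 in white matter and 0.775% ± 0.040 in choroid plexus. Rpl22l1 over Rpl22 was thus 0.451 to 0.517 in white matter and 0.529 to 0.607 in choroid plexus over the libraries. It was 1.62 to 1.86 in CA1 and 2.10 to 2.40 in hypothalamus, with no overlap between these ranges. In between, meninges had 0.780 to 0.998, thalamus 0.942 to 1.15 and the dentate region 1.18 to 1.27. The sum of the pair varied less, from 0.987% ± 0.037 in white matter to 1.39% ± 0.05 in CA1. These are UMI ratios that are not corrected for transcript length, so only their differences between regions can be read.

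Rps27l made up 0.249% to 0.448% of ribosomal protein UMIs in choroid plexus and 0.0773% to 0.158% in the other 10 regions, which did not overlap with it. Its parent Rps27, whose reads may also be split with Rps27rt, made up 1.53% ± 0.15 in choroid plexus against 1.05% ± 0.19 in the dentate region and 1.86% ± 0.18 in meninges. Rpl3l and Rpl39l were near the floor of the data: Rpl3l had 29, 20, 6 and 10 UMIs and Rpl39l 31, 17, 10 and 15 in library order, and neither passed the filter. Their parents Rpl3 and Rpl39 had 34654 to 44442 and 45229 to 56750 UMIs.

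**Figure D3:**
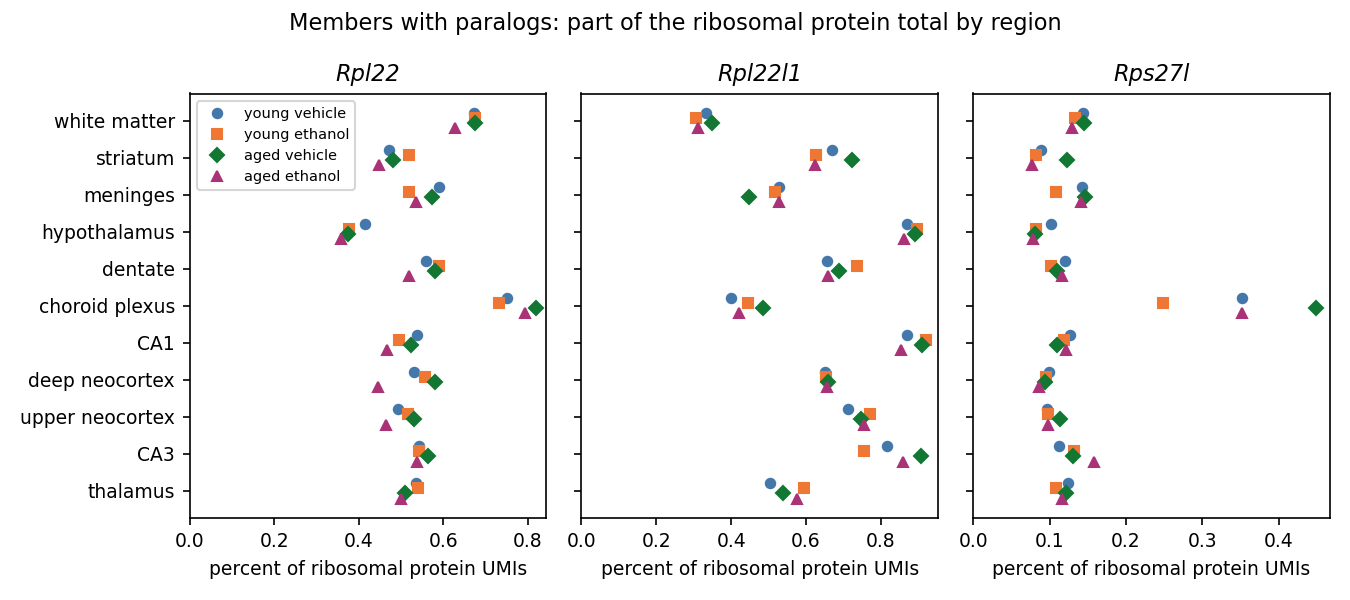
Percent of ribosomal protein UMIs (x axes, from 0) taken by Rpl22, Rpl22l1 and Rps27l in 11 regions (y axis), with 1 point per library. Rpl22l1 is lowest in white matter (0.325% on average), and Rps27l in choroid plexus (0.249% to 0.448%) lies above all other regions.

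The members made up a smaller part of the UMIs of thalamus than of neocortex, with 0 of 80 higher and 56 lower on the TMM scale against 27.4% and 27.5% of 11654 genes, and a member median of -0.22. The share was 0.81-fold (log2 -0.31 ± 0.13, SD, n = 4) and lower in 4 of 4 libraries, from -0.13 in aged vehicle to -0.42 in young ethanol, and a spot held 773 ± 158 ribosomal protein UMIs. In the mix, 10 members were higher and 9 lower, against 40.1% and 15.0% of all genes. Rps6, the S6 kinase substrate, was highest (0.36, SE 0.09, adjusted p = 0.000412), followed by Rplp0 (0.32), Rpl34 (0.32), Rpl28 (0.29) and Rps28 (0.29). Rpl29 (-0.43, adjusted p = 1.8e-05), Rpl22l1 (-0.36), Rps2 (-0.33), Rpl41 (-0.32) and Rpl12 (-0.32) were lowest. Without the aged ethanol library 11 members were past the threshold in the mix, in place of 19. The region joined clusters with shares of 5.30% ± 0.43 and 6.55% ± 0.48 (SD, n = 4), and the members were tested on their sum only. Thalamus also held 8541 to 11976 CPM of oligodendrocyte markers, above upper neocortex (1599 to 2060) and overlapping deep neocortex (6348 to 8837), and 15.3% to 18.0% mitochondrial UMIs, and the part of either was not tested. Of the elongation factors Eef1d (0.58) and Eef2 (0.37) were higher and Eif5a (-0.19) lower, and Eif4ebp1, which restrains cap-dependent initiation, was lower by -1.06.

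The members made up a larger part of the UMIs of hypothalamus than of neocortex, with 59 of 80 higher and 0 lower on the TMM scale against 20.2% and 20.9% of 11605 genes, and a member median of 0.30. The share was 1.23-fold (log2 0.30 ± 0.04, SD, n = 4) and higher in 4 of 4 libraries, and a spot held 2028 ± 344 ribosomal protein UMIs. The region was 1 cluster, led by Baiap3, Nts and Ngb, of 114 to 187 spots per library. The cluster led by Hcrt, Avp and Oxt, which also held hypothalamus markers, was not part of it. That cluster had a share of 9.34% ± 0.48, and its members were not compared with neocortex. The 6 neuronal markers summed to 2602 to 3268 CPM in hypothalamus, below the 5176 to 6332 CPM of the neocortex clusters. The 10 choroid plexus markers summed to 116 to 3488 CPM, against 220 to 848 CPM in the neocortex clusters. The part of either in the result was not tested. In the mix 10 members were higher and 19 lower, against 8.04% and 48.9% of all genes. Rps26 (0.32, SE 0.06, adjusted p = 0.000143), Rps27 (0.32), Rpl22l1 (0.31), Rps19 (0.29), a gene mutated in Diamond-Blackfan anaemia, and Rps12 (0.22) were highest. Rpl22 was lowest (-0.42, SE 0.07, adjusted p = 2.8e-05), followed by Rpl7l1 (-0.35), Rpl29 (-0.33), Rpl5 (-0.31) and Rpl4 (-0.30). For Rpl5 and Rpl4 the aged ethanol library stood apart at -0.85 and -0.77, with -0.11 to -0.16 and 0.03 to -0.27 in the others. Leaving out the young ethanol, aged vehicle or aged ethanol library left 17, 17 and 18 members past the threshold in the mix in place of 29. Eef1g (0.45) and Eef1a1 (0.50) were higher and Eef1a2 (-0.52) lower.

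Among hippocampal cell layers, the members made up a smaller part of the UMIs of the CA3 cluster than of CA1, a difference that depended on which clusters were taken as CA3. On the TMM scale 0 of 80 were higher and 71 lower, against 17.1% and 16.0% of 9357 genes, with a member median of -0.31. The share was 0.80-fold (log2 -0.32 ± 0.02, SD, n = 4), with -0.32, -0.33, -0.34 and -0.29 in the 4 libraries. The clusters did not overlap, at 5.94% to 6.42% in CA3 and 7.28% to 8.14% in CA1. Per spot there were 2140 ± 184 ribosomal protein UMIs in CA3 and 2014 ± 230 in CA1. With the second CA3 cluster joined, a choice made after seeing the data, 13 members were higher and 11 lower on the TMM scale, with a member median of 0.01. The share was then at log2 -0.08 ± 0.02, still lower in 4 of 4 libraries. Mitochondrial UMIs were also lower in CA3 (7.54% to 9.95%) than in CA1 (11.8% to 13.8%), and were 20.6% to 23.2% in the second cluster. The 6 neuronal markers summed to 6752 to 7438 CPM in CA3 and 3106 to 3464 CPM in CA1. The part of either in the result was not tested. In the mix 23 members were higher and 15 lower per ribosomal protein total, against 44.6% and 5.43% of all genes. Rplp0 (0.34, SE 0.06, adjusted p = 3.95e-06), Rpl29 (0.27), Rps2 (0.27), Rpl4 (0.26) and Rps4x (0.23) stood highest. Rps29 (-0.42, SE 0.04, adjusted p = 1.09e-16), Rps27 (-0.41), Rpl30 (-0.31), Rps21 (-0.23) and Rps23 (-0.22) stood lowest. With the second cluster joined 11 were higher and 13 lower. Of the named ones Rplp0 (0.34, adjusted p = 4.02e-08), Rpl29 (0.14) and Rpl30 (-0.18) stayed past the threshold in their direction, Rpl4 was past it in the other (-0.14), and Rps29 was at 0.07 (adjusted p = 0.0628). Of the 78 mitochondrial ribosomal proteins 12 were higher and 8 lower in CA3, among them Mrps22 (0.59) and Mrps9 (-0.58). Eef1a2 was higher by 0.34 and Eef1a1 lower by -0.24.

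The dentate granule cluster differed from CA1 in its mix, while the direction of the total depended on the scale and on the clusters taken. On the TMM scale 17 members were higher and 31 lower, against 19.2% and 20.9% of 9702 genes, with a median of -0.05. With no normalization factors, a scale that raised the median of all genes from 0.01 to 0.19, 39 were higher and 12 lower. The share was 1.05-fold (log2 0.08 ± 0.03, SD, n = 4, higher in 4 of 4 libraries), and with mitochondrial genes out of the total the log2 ratio was -0.0072. Per spot there were 2491 ± 483 ribosomal protein UMIs. With the second dentate cluster joined, a choice made after seeing the data, 64 members were higher and 1 lower on the TMM scale, and the share was at log2 0.19 ± 0.04. Mitochondrial UMIs were 6.38% to 9.56% in the dentate region, below those of CA1, and 22.2% to 24.96% in the second cluster, and their part was not tested. In the mix 28 members were higher and 21 lower, against 25.8% and 15.6% of all genes. Rpl4, of the exit tunnel wall, was highest (0.79, SE 0.05, adjusted p = 1.13e-18), with 0.64, 0.86, 0.77 and 0.90 in the 4 libraries, followed by Rps4x (0.64), Rpl21 (0.50), Rps2 (0.47) and Rpl7 (0.46). Rps29, a zinc-binding protein of the small subunit, was lowest (-0.76, SE 0.05, adjusted p = 7.29e-18), with -0.76, -0.72, -0.96 and -0.62, followed by Rps27 (-0.69), Rps14 (-0.60), Rps28 (-0.42) and Rplp2 (-0.38). With the second cluster joined 15 were higher and 13 lower. Of the named ones Rps4x (0.21), Rpl21 (0.13), Rps2 (0.33), Rpl7 (0.14), Rps14 (-0.31) and Rplp2 (-0.25) stayed past the threshold in their direction at a smaller size. Rpl4 (0.31, adjusted p = 1.44e-05) and Rps27 (-0.21, adjusted p = 0.000439) did so too, whereas Rps29 (-0.03, adjusted p = 0.663) and Rps28 (0.02, adjusted p = 0.793) were not past the threshold. Rpl4 (0.69) and Rps29 (-0.86) had these directions on the TMM scale also, in the 1 cluster. Of the other lists Gnl3, of ribosome assembly, was higher by 0.86 and Mrpl52 lower by -0.63.

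**Figure D4:**
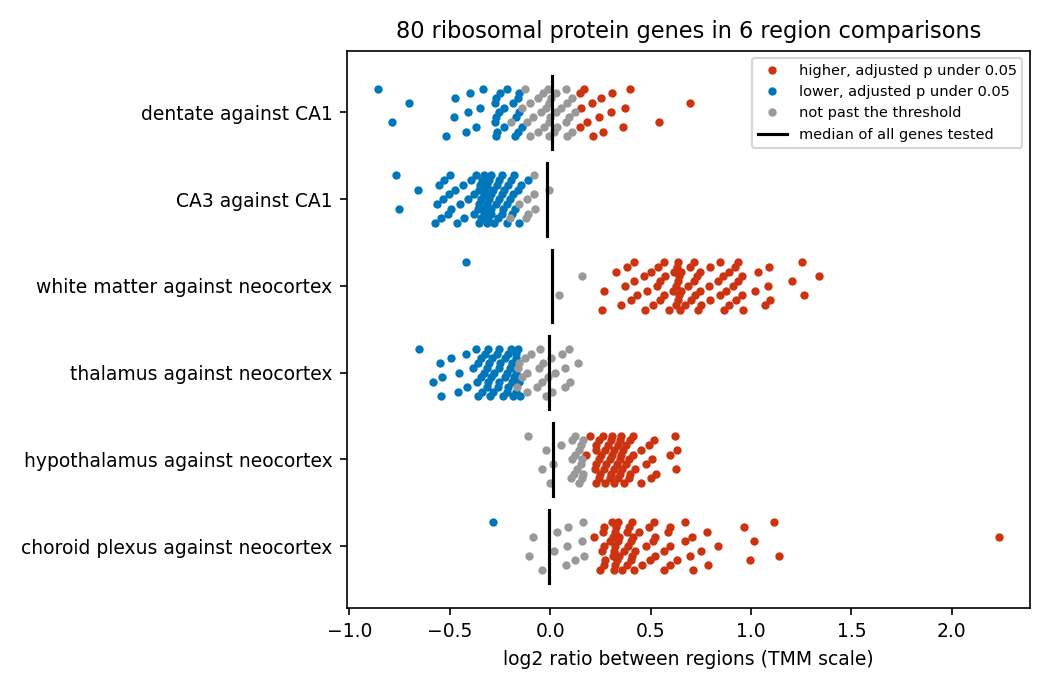
Log2 ratio on the TMM scale (x axis) of the 80 members that passed the filter in 6 region comparisons (y axis), coloured by whether the edgeR test placed them past the threshold, with the median of all genes tested as a bar. In white matter 77 are higher, in CA3 71 are lower, and in the dentate region 17 are higher and 31 lower.

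Over the 6 comparisons 75 of 80 members differed in the mix at least once and 5 in none, and 39 differed in opposite directions in different comparisons. Of 9235 genes tested in each of the 6, 98.4% differed at least once and 66.3% in both directions, so that neither count is above that of all genes. All these counts take CA3 and the dentate region as 1 cluster each. Rplp0 and Rpl29 differed in all 6. Rplp0 was higher in 5 and lower in 1, and Rpl29 was lower in 4 and higher in 2. Rpl12 was lower in 5 and higher in 0. The 4 comparisons with neocortex share its sums, and the 2 with CA1 share those of CA1. For 70 of 80 members the SD over regions of the log2 part of the total exceeded the median SD over libraries within a region (medians 0.14 and 0.08). Among members with at least 1000 UMIs, only Rps27l (2.00), Rpl22l1 (1.45), Rpl4 (1.05) and Rpl22 (1.02) had a log2 range over regions above 1.

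Between libraries there was no replicate and therefore no test, and 1 member passed a 1.5-fold limit. The comparison took the 80 members with 50 or more UMIs in the library of a pair that held more UMIs of that gene. In young ethanol against young vehicle 0 members were at least 1.5-fold higher and 0 lower, against 3.64% and 2.48% of 14553 genes. In aged ethanol against aged vehicle the counts were 0 and 0, against 2.61% and 3.95% of 14268 genes. In aged vehicle against young vehicle they were 1 and 0, against 1.20% and 0.776% of 14299 genes, and in aged ethanol against young ethanol 0 and 0, against 0.998% and 1.85% of 14435 genes. The member medians were log2 -0.03, -0.10, 0.02 and -0.05, beside 0.00, -0.07, 0.02 and -0.05 for all genes.

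The member past the fold was Rpl35, a 60S protein at the exit of the peptide tunnel. Its level was 210, 219, 324 and 293 CPM in library order, so that both aged libraries were above both young ones. Aged against young was 1.54-fold (exact conditional binomial 95% interval 1.5 to 1.58, for counting error only) under vehicle and 1.34-fold (1.31 to 1.37) under ethanol. Its part of the ribosomal protein total was higher in the aged library in 11 of 11 regions in each of these comparisons. Rpl10, a late-joining 60S protein, stood at 214 CPM in young vehicle and at 278, 299.9 and 290.1 CPM in the others, so that the young vehicle library was apart from the other 3. Reads of Rpl10 (55266 UMIs) may be split with Rpl10-ps3 (14631 UMIs), which is not a member.

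The aged ethanol library differed from the rest in another group. Rps29 stood at 2103, 2285, 2115 and 2774 CPM in library order. Rps28 stood at 845, 899, 818 and 1063 CPM, and Rpl21 at 1638, 1669, 1873 and 1319 CPM. Aged ethanol was thus highest for Rps29 and Rps28 and lowest for Rpl21. Against aged vehicle the ratio was 1.31-fold (1.301 to 1.32) for Rps29, 1.298-fold (1.28 to 1.32) for Rps28 and 0.704-fold (0.697 to 0.712) for Rpl21, each in the same direction in 11 of 11 regions as a part of the total. Rpl35, Rpl10, Rps29, Rps28 and Rpl21 were, among members with at least 1000 UMIs, the 5 with the widest range over libraries, at log2 0.59, 0.49, 0.48, 0.46 and 0.42 of the part of the total. Rpl3l (2.11) and Rpl39l (1.47), with under 100 UMIs each, ranged more widely.

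Over the 4 libraries the summed part of Rps27, Rps28 and Rps29 rose with the mitochondrial UMIs. These 3 genes were chosen after their values were seen, so the values below describe them only. Rpl21, which was lowest in aged ethanol, was not among them. The 3 genes made up 5.22%, 5.72%, 5.15% and 6.90% of ribosomal protein UMIs in library order, beside 13.8%, 14.3%, 13.6% and 16.5% mitochondrial UMIs. Over the 44 region and library sums the 2 percentages had Pearson's r = 0.82 and Spearman's rho = 0.80, and over the 11 regions of a library r was 0.79 to 0.89. The points of a library share its section, depth and chemistry, and the members' part is taken of the ribosomal protein total, so mitochondrial counts do not enter it. The dentate cluster, lowest of the 11 regions in mitochondrial UMIs (7.59% ± 1.37), was also lowest in the 3 genes (4.01% ± 0.67), and striatum and meninges were highest in both (18.6% ± 3.2 with 6.44% ± 0.99, and 17.6% ± 1.8 with 6.72% ± 0.89). The part of RNA quality in these differences was not tested.

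**Figure D5:**
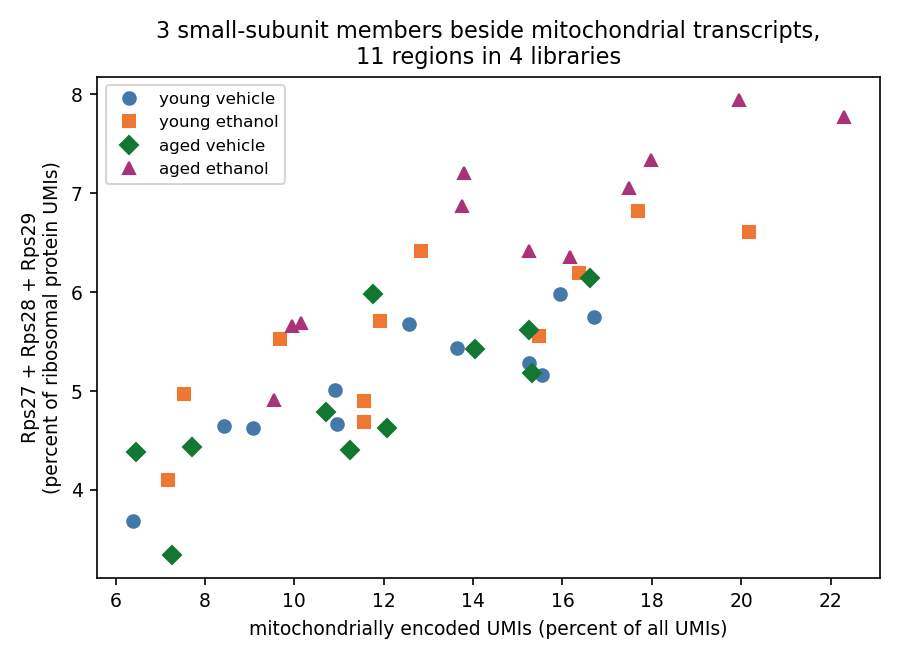
Percent of ribosomal protein UMIs from Rps27, Rps28 and Rps29 (y axis) against percent of mitochondrially encoded UMIs (x axis), with 1 point for each of 11 regions in each of 4 libraries. The points rise together (r = 0.82, n = 44), and those of the aged ethanol library lie towards the upper right.

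The share of the whole set differed little between libraries. The log2 ratio over the section was -0.02 in young ethanol against young vehicle, -0.08 in aged ethanol against aged vehicle, 0.03 in aged vehicle against young vehicle and -0.02 in aged ethanol against young ethanol. Within regions the share was higher in 6 of 11 in the first of these comparisons, in 2 of 11 in the second, in 8 of 11 in the third and in 2 of 11 in the fourth. With mitochondrial genes out of the total these counts were 7, 6, 8 and 5 of 11. In white matter both aged libraries were above both young ones (9.97% and 9.99% against 9.50% and 9.51%). In thalamus aged vehicle was apart at 6.29%, with 5.31% to 5.59% in the other 3.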

How the data were processed

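The deposited matrix holds whole UMI counts per gene and spot, which the authors made with Space Ranger 1.3.1 per the file headers, whereas the submitters' processing notes name version 2.0.0, with the mm10 build. Barcode letters tied spots to libraries, and 1538 to 2377 barcode sequences recur between pairs of libraries, since slide areas carry a common set. Spots under 500 UMIs were left out (122 of 11064). No doublet caller was run, since a spot holds several cells.

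Spots were clustered on log values per 10000 UMIs (Leiden, resolution 2, set on markers) from 30 components of 1574 features that held no member. Counts were summed by region and library and tested over genes not used in clustering, after a filter on low counts, with edgeR 4.0.16 in R 4.3.3 (glmQLFit and glmQLFTest, library as a block, TMM factors or the ribosomal protein total as library size, adjusted p threshold 0.05). Neocortex was the sum of the upper cluster, led by Lamp5, and the deep cluster, led by Trbc2, Cplx3 and Ighm. Other clusters with neocortex markers, such as those led by Fezf2, by Dkkl1, by Tshz2 and by Ccn2, were not part of it. The 4 libraries are of different groups and serve as replicates of the region contrasts only. Since the regions come from the same spots, p-values do not cover their choice. Libraries were compared as CPM without a test. On simulated counts for white matter against neocortex (11503 genes) 89% of 2-fold and 45% of 1.5-fold changes were recovered, and for CA3 against CA1 (9354 genes) 89% and 30%. The simulation gave all genes the same dispersion and changed genes from low to high counts. These rates therefore do not give the power for the members, most of which have high counts.

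The members and the gene lists were chosen with earlier results of these data known. Named members were the 5 with most UMIs, the 5 highest and 5 lowest past the threshold in the mix per comparison, the 5 widest over libraries among members with at least 1000 UMIs, the paralogs with their parents, and those beside the minimum of 50 UMIs. Other lists could give their 2 highest and 2 lowest genes per comparison, of which a selection is named. Alternatives were DESeq2 1.42.0, RLE factors, no factors, no filter, no mitochondrial genes, spots of at least 2000 UMIs, spots of 5000 to 20000 UMIs, no library block, each library left out, a 2-fold limit, CA3 and dentate each joined with a second cluster, and regions with equal weight.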

Additional observations from a re-analysis of the deposited data

Results flagged for a closer look

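The log2 ratio of the section share, aged against young, was 0.03 in the vehicle libraries and -0.02 in the ethanol libraries. A like opposition of sign between ages or gavage labels was seen in CPM for 4 of the 5 members with the widest range over libraries among those with at least 1000 UMIs. For ethanol against vehicle, Rpl35 had 0.06 in young and -0.14 in aged libraries, Rpl10 had 0.38 and -0.05, and Rpl21 had 0.03 and -0.51. For aged against young, Rps28 had -0.05 under vehicle and 0.24 under ethanol, and Rpl21 had 0.19 and -0.34. Each of these differences rests on 1 library per group and was not tested.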

How the results depend on the processing

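Of 178 alternative values over 26 results, 153 stayed within the limit set for them, 22 moved and 3 changed sign. For counts of members the limit was on the total past the threshold or fold, whatever their direction. Dentate against CA1 on the TMM scale stayed within it. Yet with the second cluster joined, or with no normalization factors, more members were higher than lower, the reverse of the main fit. The 3 changes of sign were in shares. In young ethanol against young vehicle the log2 ratio was 0.0054 with regions of equal weight. With mitochondrial genes left out it was 0.0135 in aged ethanol against young ethanol and -0.0072 in dentate against CA1. Leaving out mitochondrial genes also moved the share in young ethanol against young vehicle (-0.0166), aged ethanol against aged vehicle (-0.0337), aged vehicle against young vehicle (0.0306), CA3 against CA1 (-0.389) and choroid plexus against neocortex (0.123). Regions of equal weight moved aged ethanol against aged vehicle (-0.0648), aged vehicle against young vehicle (0.0216) and aged ethanol against young ethanol (-0.0486). Spots of 5000 to 20000 UMIs, chosen after seeing the data like the fit with no normalization factors, moved the share in white matter (0.384) and choroid plexus (0.344) against neocortex. In CA3 and the dentate region under 10 spots of some library lay in that band, and it was not run. CA1 had shares of 9.36%, 9.09%, 9.53% and 8.27% in that band, in library order. In spots of at least 20000 UMIs CA1 had 7.63%, 7.47%, 7.95% and 6.85%. The dentate cluster had 8.56%, 8.37%, 8.93% and 7.52% in such spots, and the CA3 cluster 6.29%, 6.24%, 6.41% and 5.85%. Choroid plexus, at 6.71% to 8.17%, overlapped with neocortex, at 6.83% to 7.06%, in spots of that depth. Without the library block, members past the threshold in the mix fell to 30 in dentate against CA1 and to 19 in CA3 against CA1. With the second cluster of their markers joined, also chosen after seeing the data, members past the threshold fell to 24 on the TMM scale and 24 in the mix in CA3 against CA1 and to 28 in the mix in dentate against CA1. The shares moved to -0.0788 in CA3 and 0.194 in dentate against CA1. Leaving out 1 library at a time gave 11 to 24 in thalamus against neocortex and 17 to 30 in hypothalamus against neocortex. At 2-fold 0 members were past the limit in aged vehicle against young vehicle. No paired analysis was possible because each group holds 1 library, as far as comparisons between groups go, whereas region comparisons carry the library as a block. The cause of these changes was not tested. Depth limits Rpl3l and Rpl39l, for which no ratio was given.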
